A study of Rattus norvegicus with 14 samples.

Results

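The 5639 regions described here are the methylated-DNA capture regions of rat chromosome 12 that lie outside the interval chr12:34807317-35038479 (build RN4), an interval set aside for Camkk2. They were chosen by their measured values: a region was kept where its sequence tags, summed over all 14 animals, reached 129, the median of that sum over all deposited regions. They are 5639 of the 155092 regions of the genome that passed the same filter and of 310070 regions deposited. The study built the deposited regions from peaks that differed between pairs of samples, so stretches alike in all animals are not among them. Chromosome 12 had 10470 deposited regions, of which 4778 outside the interval fell below the filter and 32 above it overlapped the interval. The tag sum ignores the animals' groups, so the contrasts between groups were tested, and the sum itself is given only as a description.

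The study asked whether DNA methylation in the hippocampus differs in chronic epilepsy and whether a ketogenic diet alters it. Dorsal hippocampus was taken from individual male Wistar rats, without pooling, at the end of an observation period of 84 days. CTRL animals (n = 5) received methyl scopolamine at 1 mg/kg and saline, and had no status epilepticus induced. PILO animals (n = 4) received the same dose of methyl scopolamine, then pilocarpine at 340 mg/kg, with a second dose of 175 mg/kg where no status epilepticus followed, and diazepam at 8 mg/kg. PILO+KD animals (n = 5) had the same injections as PILO and a ketogenic diet in place of the standard diet. No group received the ketogenic diet without pilocarpine, so the diet was compared only among pilocarpine-treated animals. The tissue was homogenised whole, and a change in the mix of cells and a change in methylation per cell cannot be told apart in these counts. The capture gives no expression values, so the tissue label was not checked against marker genes.

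Cytosine methylation at CpG sites is laid down by DNA methyltransferases and is read by proteins with a methyl-CpG-binding domain. Methyl-Seq uses such a domain to pull down methylated duplex fragments, so a region's tag count rises with the number of methylated CpGs and with the amount of DNA that carries them. It does not give a percentage of methylation at single sites. Rat chromosome 12 carries genes known in the brain, among them Auts2, a neurodevelopmental regulator, Stx1a, a protein of synaptic vesicle fusion, Limk1, a kinase of the actin cytoskeleton, and P2rx7, an ATP-gated channel, according to the RefSeq annotation of a later assembly. No region was placed in a gene, exon or promoter here, because an annotation of RN4 was not used, and regions are named by their RN4 coordinates as the deposited table gives them. For the same reason, whether any of the genes named lies inside the excluded interval was not determined.

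Libraries held 6972700 to 12391666 tags, so 1 tag was worth 0.0822 to 0.154 CPM (tags relative to the library's size, scaled with TMM factors of 0.895 to 1.07). PILO replicate 3 was the deepest library and PILO replicate 4 the shallowest. The labels begin with 4 prefixes, FC084, FC101, FC102 and FC104, which were read here as flow cells. The labels do not spell the prefix out. The largest, FC101, held 8 libraries (CTRL 3, PILO 3 and PILO+KD 2), FC102 held 1 of each group, FC084 held 1 CTRL and 1 PILO+KD library, and FC104 held PILO+KD replicate 4 alone. The median CPM over the 5639 regions ran from 2.65 in PILO+KD replicate 4 to 3.45 in PILO replicate 3, and both of these libraries touch results given below. Each group's replicates were separate animals. Within a group, no pair of libraries was close enough to be a repeat of 1 library, and pairs across groups were not compared.

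The regions had a median length of 788 bp (216 to 13552 bp) and a median tag sum of 363, against 787 bp and 405 over all tested regions. They covered 5008933 bp, from chr12 position 1 to 46779776, with a median gap of 3353.5 bp between neighbours. Of the chromosome's deposited regions 54.2% passed the filter, which placed it at rank 2 among the 20 autosomes. The median biological coefficient of variation, the spread between animals beyond counting error, was 21.0% for these regions and 20.2% over all tested regions. These regions were of the usual length, with fewer tags and a slightly wider spread between animals.

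Tags were most concentrated near the start of the chromosome. The first 5 Mb held 460 regions with 691640 tags, or 1.39 tags per covered base, and the other 5-Mb bins held 0.594 to 0.945. The region with the most tags was chr12:4408552-4420332, 11780 bp long, with 100895 tags. It held 843, 683, 733, 965 and 924 CPM in CTRL replicates 1 to 5, 800, 755, 1031 and 851 CPM in PILO replicates 2 to 5, and 852, 671, 771, 914 and 965 CPM in PILO+KD replicates 1 to 5. The 3 groups overlapped over nearly their whole range, with a log2 fold change of 0.05 (standard error 0.17) for PILO against CTRL and of 0.01 (standard error 0.16) for PILO+KD against CTRL. Its neighbour chr12:4399018-4405244 (49604 tags) was at 408 ± 66.4 CPM in CTRL (SD, n = 5), 420 ± 57.2 CPM in PILO (SD, n = 4) and 412 ± 66.0 CPM in PILO+KD (SD, n = 5). Chr12:3159-16711, the longest region at 13552 bp with 36094 tags, was at 279 ± 59.1 CPM, 330 ± 71.8 CPM and 306 ± 84.9 CPM in the same order. None of these 3 regions passed p below 0.01 in any contrast.

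At the filter's edge, chr12:6883159-6883661 and chr12:8052427-8052973 were just inside with 129 tags each. Their mean levels were 0.88 ± 0.311 CPM and 0.779 ± 0.506 CPM in CTRL (SD, n = 5), and 1.11 ± 0.383 CPM and 1.29 ± 0.661 CPM in PILO (SD, n = 4). The regions chr12:1258217-1258721 and chr12:5480210-5480984 were just outside, with 128 tags each, of which single animals held 3 to 15 and 4 to 19 tags. On either side of the excluded interval the nearest regions were chr12:34793053-34793555 and chr12:35070890-35071376. The first was at 1.73 ± 0.708 CPM in CTRL, 1.83 ± 0.936 CPM in PILO and 1.7 ± 0.658 CPM in PILO+KD, and the second at 5.96 ± 0.699 CPM, 6.08 ± 0.856 CPM and 6.43 ± 1.26 CPM (SD). The groups overlapped in both, and neither passed p below 0.01 in any contrast.

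Summed over these regions, chromosome 12 held a like share of the tested tags in all 3 groups. The 5639 regions held 3.20% ± 0.114 of the tested tags in CTRL (SD, n = 5, 3.05% to 3.32%), 3.16% ± 0.109 in PILO (SD, n = 4, 3.08% to 3.32%) and 3.15% ± 0.209 in PILO+KD (SD, n = 5, 2.83% to 3.34%). The groups overlapped. The lowest share was that of PILO+KD replicate 4 at 2.83% (95% Wilson interval 2.82% to 2.84%, counting error only), the library that was alone on its flow cell. Among the 20 autosomes chromosome 12 had the most variable share from animal to animal, with a coefficient of variation of 4.55%. Chromosomes 10, 19 and 20 followed at 4.35%, 4.19% and 3.28%, so a wide spread was not particular to it. Without PILO+KD replicate 4 the value for chromosome 12 was 3.48%, and the other autosomes were not recomputed without that library. The mean share by flow cell was 3.19% on FC084, 3.23% on FC101, 3.10% on FC102 and 2.83% on FC104, and the part of the flow cell in this spread was not tested.

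PILO was compared with CTRL to see which regions differ in the epileptic hippocampus. At an unadjusted p below 0.01, the study's own threshold, 91 of 5639 regions differed (1.61%), against a background of 1.19% over all tested regions. Higher in PILO were 65 regions (1.15%, background 0.713%) and lower were 26 (0.461%, background 0.482%). After Benjamini-Hochberg adjustment over all tested regions in edgeR's quasi-likelihood test, 0 of the 5639 regions passed 0.05 (background 0.00387%), the smallest adjusted p being 0.0614, while 368 had an unadjusted p below 0.05 (6.53%, background 5.13%). DESeq2's test put 80 regions below an unadjusted p of 0.01, against 1.03% of all regions it tested. The groups did not overlap in 155 regions (2.75%, background 2.01%), 52 of them among the 91. The 91 regions had a median size of change of 0.97 on the log2 scale (0.51 to 2.59), and the median change over all 5639 regions was -0.01.

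The balance of direction in this contrast rested on 1 animal. Without PILO replicate 3, the deepest library and the one with the highest median CPM over these regions, 90 regions passed, 32 of them higher and 58 lower than in CTRL. The background without this animal was 1.43% over all tested regions, against 1.19% with all animals. Over all tested regions the share that was higher among those passing went from 59.7% to 37.2% without this animal, so the majority turned there too. Leaving out any other animal left 48 to 74 higher and 21 to 34 lower, with backgrounds of 0.932% to 1.41%. In the 65 higher regions, PILO replicate 3 was the highest PILO animal in 22, PILO replicate 2 in 21, PILO replicate 4 in 15 and PILO replicate 5 in 7. Within flow cell FC101 alone 112 regions passed, 75 higher and 37 lower, with PILO replicate 3 among the animals and a background of 1.41% over all tested regions.

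By position, in the first 15 Mb 11 of 1894 regions were higher and 15 lower in PILO (1.37% in all), from 15 to 30 Mb 15 of 1445 were higher and 4 lower (1.31%), and beyond 30 Mb 39 of 2300 were higher and 7 lower (2%). The background over all tested regions was 1.19%, and the spread along the chromosome was not tested. The fullest 5-Mb bins were that from 35 to 40 Mb, with 15 higher and 2 lower of 658 regions (2.58%), and that from 30 to 35 Mb, with 12 higher and 1 lower of 611 (2.13%). Without PILO replicate 3 (background 1.43%) the same 3 stretches held 4 higher and 22 lower, 6 higher and 14 lower, and 22 higher and 22 lower. Within flow cell FC101 (background 1.41%) they held 28 higher and 14 lower, 24 higher and 9 lower, and 23 higher and 14 lower. Beyond 30 Mb, leaving out any 1 animal other than PILO replicate 3 gave 26 to 41 higher and 4 to 8 lower (background 0.932% to 1.41%). There a flow cell term gave 41 and 11 (background 1.25%), and a replicate block gave 36 and 7 (background 1.28%). In the first 15 Mb the majority was higher without CTRL replicate 1 (16 higher, 13 lower), CTRL replicate 2 (18 and 15), CTRL replicate 3 (14 and 12) or PILO replicate 5 (16 and 12), and even with a flow cell term (13 and 13). The backgrounds of these settings were 1.08%, 1.15%, 1.18%, 1.18% and 1.25% in that order.

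**Figure D1:**
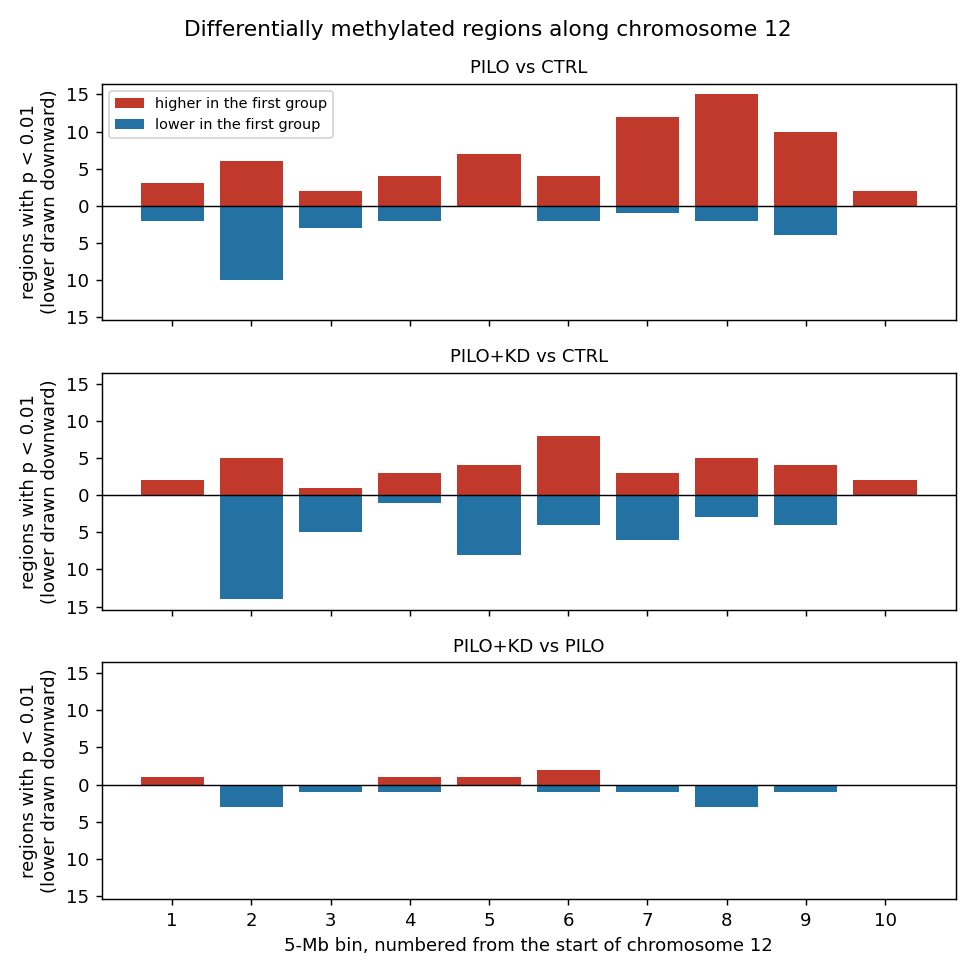
Number of chromosome 12 regions with p below 0.01 (y axis, lower regions drawn downward) in each 5-Mb bin from the chromosome's start (x axis), for the 3 contrasts. In PILO vs CTRL bin 8 holds 15 higher and 2 lower regions and bin 2 holds 6 higher and 10 lower, and in PILO+KD vs CTRL bin 2 holds 5 higher and 14 lower.

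**Figure D2:**
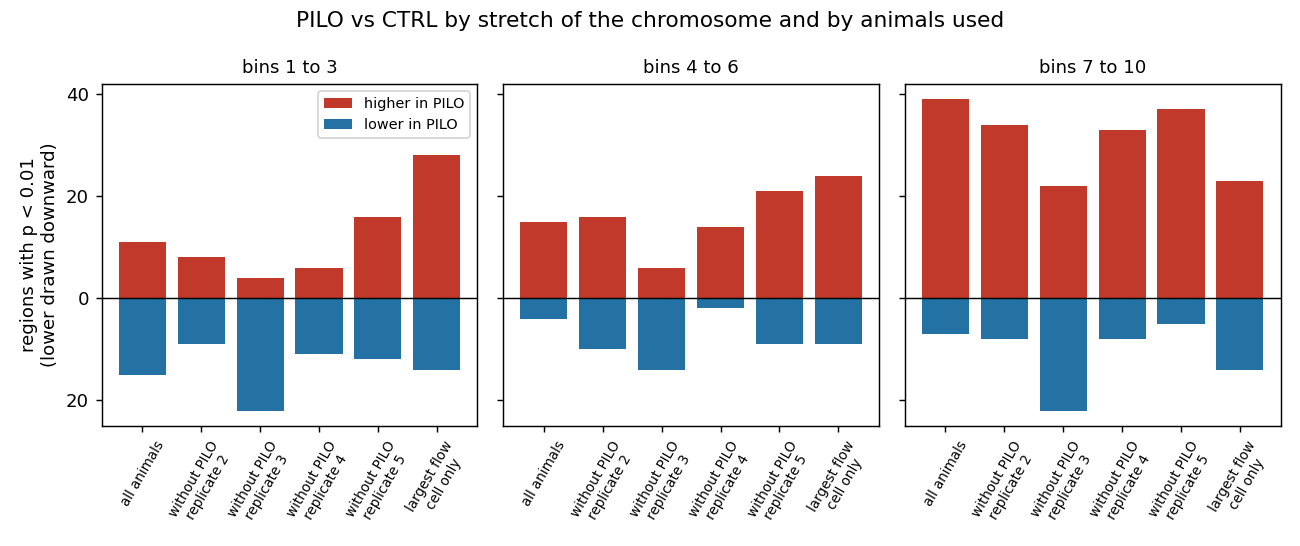
Number of regions with p below 0.01 in PILO vs CTRL (y axis, lower regions drawn downward) in 3 stretches of the chromosome, with all animals, without each PILO replicate in turn, and in the largest flow cell alone (x axis). Without PILO replicate 3 the last stretch goes from 39 higher and 7 lower to 22 higher and 22 lower.

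The region with the smallest p was chr12:7708517-7709354, 837 bp long with 343 tags. It held 5.76, 4.36, 7.73, 3.29 and 6.11 CPM in CTRL replicates 1 to 5, 0.444, 1.48, 0.154 and 1.13 CPM in PILO replicates 2 to 5, and 0.288, 2.53, 0.452, 1.22 and 3.39 CPM in PILO+KD replicates 1 to 5. Every PILO animal was below every CTRL animal, while PILO+KD animals ran from near the lowest PILO value to within the CTRL range. PILO was lower than CTRL (log2 fold change -2.59, standard error 0.45, edgeR p = 2.77e-06, adjusted p = 0.0614, exact permutation p = 0.00794). The exact p is two-sided and is the smallest that 126 splits of these animals allow. The log2 fold change was -2.61 within flow cell FC101, and it lay between -3.13 and -2.31 under the 23 alternatives that kept the region. The filter of at least 10 tags in every animal dropped it. PILO replicates 2 to 5 held only 3, 18, 1 and 9 tags there, so counting error is large in that group.

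The next lower region was chr12:7441780-7442986, 1206 bp long with 874 tags. Its levels were 11.3, 7.38, 14.3, 11.3 and 11.1 CPM in CTRL replicates 1 to 5, 2.07, 2.06, 3.39 and 7.44 CPM in PILO replicates 2 to 5, and 8.78, 6.53, 2.37, 6.08 and 7.74 CPM in PILO+KD replicates 1 to 5. PILO replicate 5 was just above the lowest CTRL animal, CTRL replicate 2, and the other PILO animals were below all CTRL animals (log2 fold change -1.58, standard error 0.31, edgeR p = 1.41e-05, adjusted p = 0.148, exact permutation p = 0.0159). Its log2 fold change within flow cell FC101 was -2.15.

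The other 4 of the 6 lower regions with the smallest p had PILO animals all below CTRL animals. Chr12:7419359-7420167 was at 3.1 ± 0.857 CPM in CTRL (SD, n = 5) and 1.09 ± 0.381 CPM in PILO (SD, n = 4), a log2 fold change of -1.51. Chr12:29292699-29293362 was at 5.38 ± 1.17 CPM and 2.71 ± 0.695 CPM, a log2 fold change of -0.99. Chr12:8935870-8936532 was at 2.69 ± 0.324 CPM and 1.09 ± 0.47 CPM, a log2 fold change of -1.23. In the last of these, PILO+KD animals were at 1.48 ± 0.423 CPM (SD, n = 5) and were also all below CTRL. Chr12:19680827-19681557 is described with the PILO+KD and PILO comparison below.

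Of the 6 higher regions with the smallest p, chr12:7352913-7354219 had the smallest. It held 5.17, 7.05, 4.89, 3.16 and 5.12 CPM in CTRL replicates 1 to 5, 10.4, 11.2, 9.71 and 7.82 CPM in PILO replicates 2 to 5, and 6.04, 11.6, 8.92, 6.19 and 7.42 CPM in PILO+KD replicates 1 to 5. All PILO animals were above all CTRL animals (log2 fold change 0.94, standard error 0.21, edgeR p = 0.000106, adjusted p = 0.391, exact permutation p = 0.0159), and PILO+KD animals spanned both. Chr12:36451001-36452130 was at 2.19, 4.03, 2.19, 2.28 and 2.4 CPM in CTRL and 6.07, 6.0, 5.39 and 3.78 CPM in PILO animals in replicate order. Here CTRL replicate 2 stood above the other CTRL animals and above PILO replicate 5, and PILO was higher by 1.02 on the log2 scale (standard error 0.24, adjusted p = 0.458 in edgeR's test).

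The remaining 4 higher regions had all PILO animals above all CTRL animals. Chr12:8432487-8433308 was at 0.964 ± 0.278 CPM in CTRL (SD, n = 5) and 2.59 ± 0.731 CPM in PILO (SD, n = 4), and chr12:22425499-22426352 at 1.4 ± 0.315 CPM and 3.27 ± 0.281 CPM. Chr12:32724540-32725755 was at 4.52 ± 0.779 CPM and 7.47 ± 0.707 CPM, and chr12:46463846-46464630 at 1.43 ± 0.402 CPM and 3.47 ± 1.55 CPM. Their log2 fold changes were 1.39, 1.22, 0.74 and 1.25 in that order, with adjusted p from 0.475 to 0.561 in edgeR's test. In the last, PILO replicate 2 alone reached 5.77 CPM, while the other PILO animals were between 2.47 and 3.03 CPM. All 12 regions were chosen by their p, so their sizes are likely to be overstated. All 12 kept their direction and p below 0.01 without PILO replicate 3 and within flow cell FC101. Those subsets hold animals that the choice was made on, so this is no independent support.

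**Figure D3:**
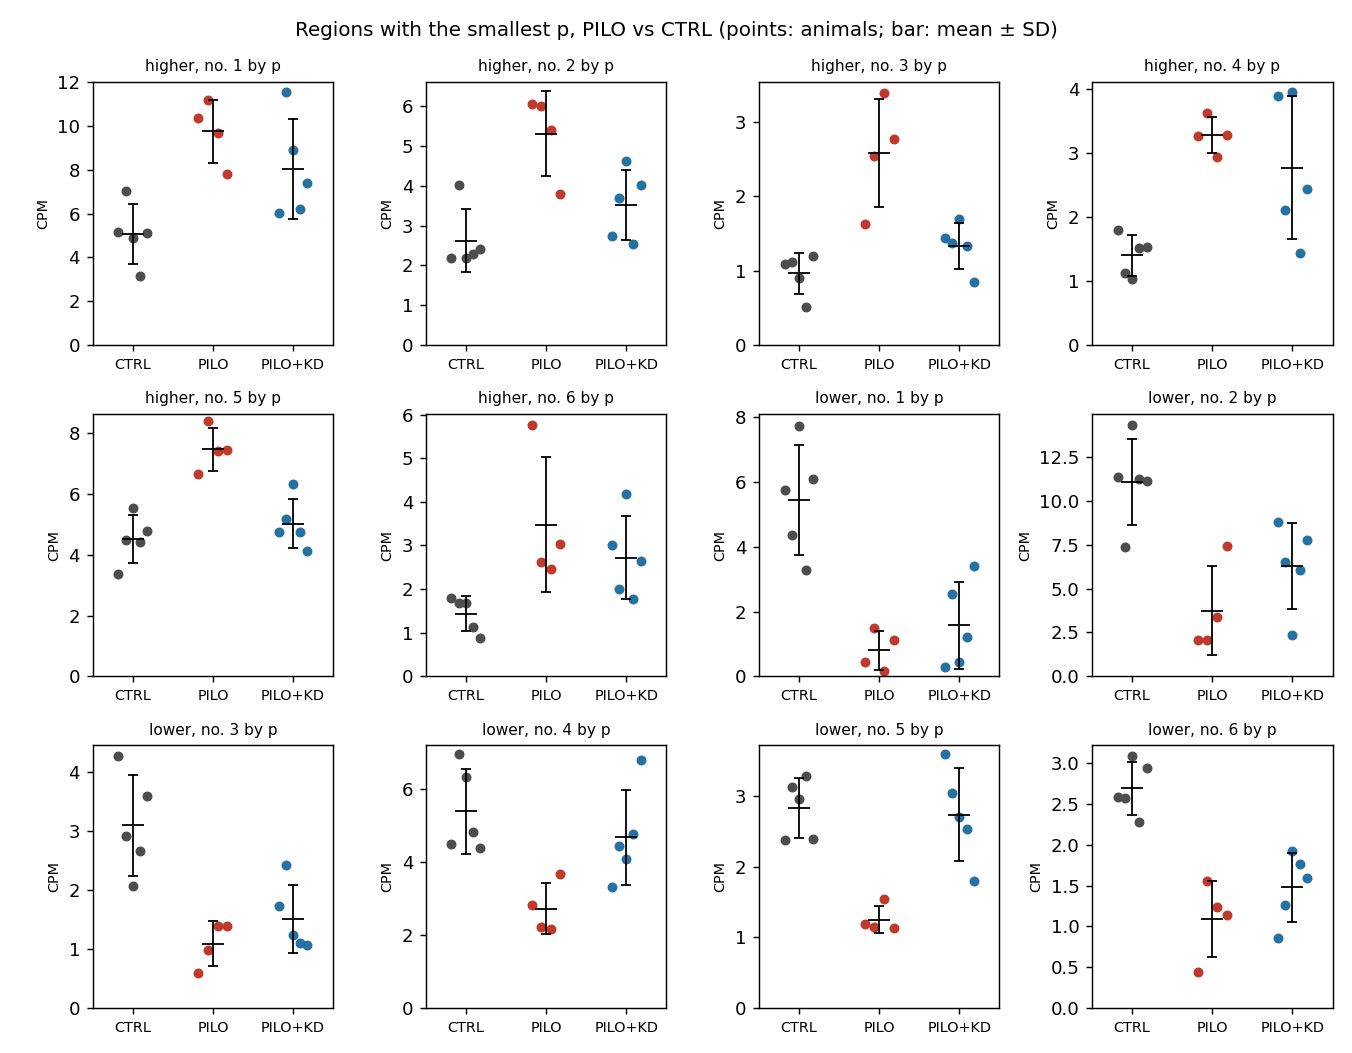
CPM (y axis, from 0) of each animal in CTRL, PILO and PILO+KD for the regions of smallest p in PILO vs CTRL, 6 higher and 6 lower, numbered by p, with the mean and SD as bars. In lower region 1 the PILO animals lie between 0.154 and 1.48 CPM and the CTRL animals between 3.29 and 7.73 CPM.

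Of the 91 regions, 44 lay in 15 runs in which neighbours with p below 0.01 were at most 100 kb apart, and 47 lay alone. In 12 of the 15 runs all such regions went in 1 direction. Runs were counted on chromosome 12 alone, so no background stands beside these counts. How many runs the spacing of the regions would give, and how many of 1 direction the excess of higher regions would give, was not tested. The longest run, from chr12:7337219 to 7539924, had 52 regions, 8 of them with p below 0.01 (5 lower and 3 higher in PILO). Within it, neighbouring regions went in opposite directions over a few kb. Chr12:7419359-7420167 was lower in PILO, with 4.27, 2.91, 2.06, 2.66 and 3.6 CPM in CTRL and 0.592, 0.986, 1.39 and 1.39 CPM in PILO animals in replicate order. Chr12:7420336-7421164, the next region along, was higher, with 1.29, 3.13, 0.644, 1.27 and 1.09 CPM in CTRL and 4.74, 3.95, 2.47 and 2.27 CPM in PILO animals (log2 fold change 1.16, standard error 0.34). The groups did not overlap in the first, and in the second CTRL replicate 2 overlapped PILO. Chr12:7423187-7423572 was lower again, at a log2 fold change of -1.71 (standard error 0.49), on only 139 tags in all.

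The run from chr12:7708517 to 7828329 held 3 regions with p below 0.01, all lower in PILO, among 26. In order of position these 3 had log2 fold changes of -2.59 for the region with the smallest p, -1.39 for chr12:7744651-7745475 and -0.65 for chr12:7827136-7828329. The run from chr12:32604190 to 32725755 held 5 such regions among 26, all higher in PILO. Their log2 fold changes were 0.93, 1.04, 0.92, 0.87 and 0.74 along the run, and in PILO+KD against CTRL 0.71, 0.62, 0.37, 0.50 and 0.16. The PILO+KD values of this run had p of 0.0102 or more.

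**Figure D4:**
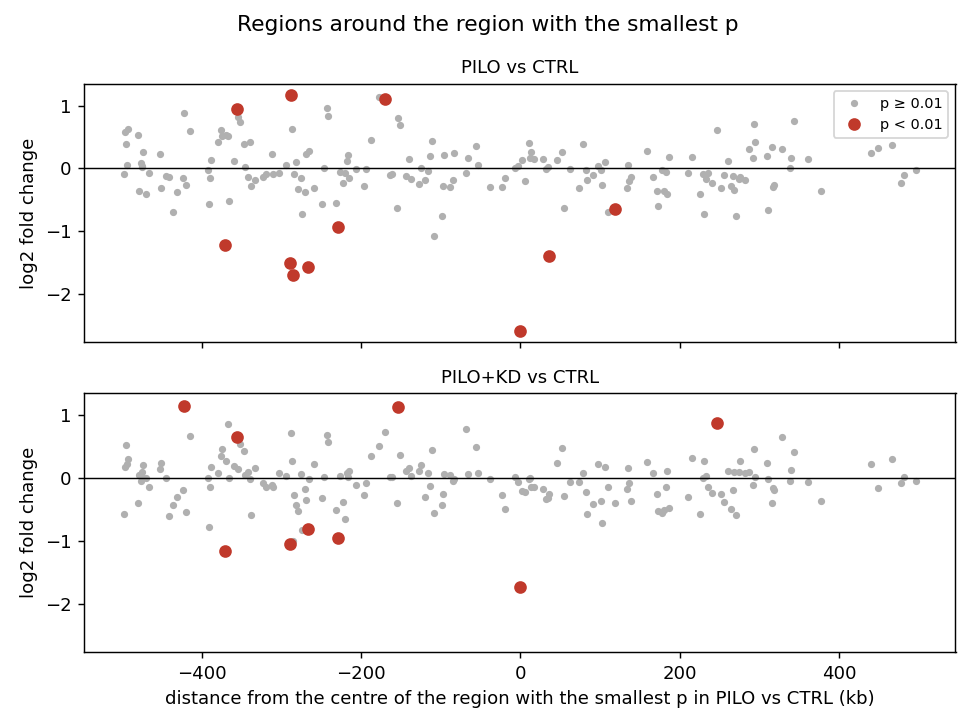
Log2 fold change (y axis) of each region within 500 kb of the region with the smallest p, against the distance from its centre in kb (x axis), for PILO vs CTRL and PILO+KD vs CTRL, with regions at p below 0.01 in red. Regions above and below 0 lie side by side in both panels, and the 2 contrasts share the CTRL animals.

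Neighbouring regions moved together only weakly. For pairs of regions at most 1 kb apart (1228 pairs) the PILO against CTRL changes had the same sign in 58.6%, with r = 0.12 across pairs, and for pairs 10 to 100 kb apart (1107 pairs) in 51.6%, with r = 0.10. These pairs share animals and libraries, and no test was made of them. Summed over 1-Mb windows, 0 of 47 windows of chromosome 12 passed p below 0.01 in PILO against CTRL (background 0.107% of 2792 windows), and 0 passed p below 0.05. The window changes lay between -0.14 and 0.19 on the log2 scale, so at this scale no shift of the chromosome's tested regions was detectable.

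PILO+KD was compared with CTRL, which uses the same CTRL animals as the comparison above, so the 2 sets of changes are not independent. At p below 0.01, 82 of 5639 regions differed (1.45%, background 0.92%), 37 higher (0.656%, background 0.5%) and 45 lower (0.798%, background 0.42%). In edgeR's quasi-likelihood test 0 regions passed an adjusted p of 0.05 (background 0.00129%), the smallest adjusted p being 0.511, and 304 had an unadjusted p below 0.05 (5.39%, background 4.22%). DESeq2's test put 65 below 0.01, against 0.785% of all regions it tested. The groups did not overlap in 58 regions (1.03%, background 0.727%). Scaling by total tags alone gave 24 higher and 45 lower in place of 37 and 45 (background 0.803%). Within flow cell FC101, with 3 CTRL and 2 PILO+KD animals, 55 regions passed (background 0.612%), 38 higher and 17 lower, so the majority changed direction. With a flow cell term over all 14 animals 50 were higher and 34 lower (background 0.949%). Among regions where no animal had under 10 tags 20 were higher and 15 lower (background 0.675%). Over all tested regions the share that was higher among those passing was 54.3% with all animals and 47% with total-tag scaling. It was 73.6% within FC101, 66% with the flow cell term and 58.2% where no animal had under 10 tags.

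Single animals also turned the majority among these regions in PILO+KD against CTRL. Higher against lower was 37 to 30 without CTRL replicate 1, 43 to 36 without CTRL replicate 2, 44 to 39 without PILO+KD replicate 4 and 41 to 31 without PILO+KD replicate 5. The backgrounds were 0.734%, 0.919%, 1.01% and 0.814% in that order. Over all tested regions the share that was higher among those passing was 62.2%, 55.4%, 64.5% and 59% in that order. With all animals it was 54.3%, so the majority there was higher already. Without CTRL replicate 5 the count fell to 47 regions (17 higher, 30 lower), and the background fell from 0.92% to 0.634%, with 49.3% of those passing higher. Along the chromosome, the bin from 5 to 10 Mb was the one with most regions lower, with 14 lower and 5 higher of 790 regions (2.41%). In FC101 alone (background 0.612%) the same bin held 10 lower and 9 higher.

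The lower region with the smallest p was chr12:5188473-5189612, 1139 bp long with 411 tags. It held 2.88, 2.69, 4.76, 7.59 and 7.3 CPM in CTRL replicates 1 to 5, 2.37, 4.69, 2.93 and 3.03 CPM in PILO replicates 2 to 5, and 1.73, 1.58, 1.58, 2.99 and 1.06 CPM in PILO+KD replicates 1 to 5. PILO+KD replicate 4 overlapped the lowest CTRL animals, and the CTRL animals themselves spread widely (log2 fold change -1.48, standard error 0.30, edgeR p = 2.97e-05, adjusted p = 0.511, exact permutation p = 0.0238). Chr12:5690973-5691648 held 1.29, 1.01, 2.45, 1.64 and 3.27 CPM in CTRL animals, and 0.421 ± 0.264 CPM in PILO+KD (SD, n = 5), where PILO+KD replicate 5 had 0 tags, which allows up to 0.318 CPM. All PILO+KD animals were below all CTRL animals there (log2 fold change -2.18, standard error 0.50, edgeR p = 0.000122, adjusted p = 0.614, exact permutation p = 0.00794), with few tags per library. Chr12:36384192-36385033 was at 2.56 ± 0.636 CPM in CTRL (SD, n = 5) and 0.959 ± 0.379 CPM in PILO+KD (SD, n = 5), without overlap, and its log2 fold change of -1.41 became -0.90 within flow cell FC101, where it no longer passed p below 0.01. The fourth was chr12:7708517-7709354, at 1.58 ± 1.35 CPM in PILO+KD (SD, n = 5) and a log2 fold change of -1.73 (adjusted p = 0.614, edgeR).

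The higher region with the smallest p was chr12:26622827-26623477, 650 bp long with 302 tags. It held 1.69, 0.336, 1.42, 1.27 and 1.85 CPM in CTRL replicates 1 to 5, 5.92, 1.97, 3.08 and 1.26 CPM in PILO replicates 2 to 5, and 2.59, 3.26, 4.63, 3.98 and 2.54 CPM in PILO+KD replicates 1 to 5. PILO+KD animals were all above CTRL animals (log2 fold change 1.36, standard error 0.35, edgeR p = 0.00056, adjusted p = 0.805, exact permutation p = 0.00794), while PILO animals reached from within the CTRL range to the highest value of all, in PILO replicate 2. Chr12:38718502-38719229, chr12:21133998-21134732 and chr12:15917407-15918016 had log2 fold changes of 1.38, 0.80 and 1.13. These 3 had, within flow cell FC101, p of 0.0142, 0.0199 and 0.0298, with the same direction. In PILO against CTRL the same 3 regions had log2 fold changes of 1.26, 0.77 and 0.91.

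There were 13 runs in this contrast, which held 35 of the 82 regions, and in 9 of them all went in 1 direction. These counts too have no background from other chromosomes and were not tested. The longest, from chr12:7286750 to 7555160, held 7 such regions among 66, of which 4 were lower and 3 higher. The run from chr12:34476947 to 34532058 held 3 regions lower in PILO+KD among 11. Chr12:34494691-34495313, in its middle, held 3.18, 3.24, 3.61, 2.66 and 2.83 CPM in CTRL and 1.58, 2.53, 1.92, 1.66 and 0.742 CPM in PILO+KD animals in replicate order, without overlap. The log2 fold changes of the 3 were -1.10, -0.87 and -1.12 in PILO+KD and -0.31, -0.26 and -0.25 in PILO, each against CTRL. In 1-Mb windows 0 of 47 passed p below 0.01 (background 0.0716%), and 0 passed p below 0.05, with changes from -0.10 to 0.10 on the log2 scale.

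PILO+KD was compared with PILO to see which regions differ with the diet among pilocarpine-treated animals. At p below 0.01, 16 of 5639 regions differed (0.284%), below the background of 0.351%, with 5 higher in PILO+KD (0.0887%, background 0.151%) and 11 lower (0.195%, background 0.201%). In edgeR's quasi-likelihood test 0 regions passed an adjusted p of 0.05 (background 0%), while 147 had an unadjusted p below 0.05 (2.61%, background 2.3%). DESeq2's test put 14 below 0.01, against 0.291% of all regions it tested. The groups did not overlap in 51 regions (0.904%, background 0.746%), of which 6 were among the 16. The count was 34 without PILO replicate 2 (background 0.594%), 35 without PILO+KD replicate 3 (background 0.458%) and 33 within flow cell FC101 (background 0.556%). In FC101 22 were higher and 11 lower, and without PILO replicate 3 it was 8 higher and 6 lower (background 0.431%). Over all tested regions the share that was higher among those passing went from 42.9% to 62.6% within FC101 and to 69.6% without PILO replicate 3. The majority turned there too. Scaling by total tags alone gave 3 higher and 12 lower (background 0.284%). No 2 of the 16 regions were within 100 kb of each other, and 0 of 47 windows passed p below 0.01 (background 0.107%) or 0.05.

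The region with the smallest p was chr12:19680827-19681557, 730 bp long with 282 tags. It held 2.38, 3.13, 2.96, 3.29 and 2.4 CPM in CTRL replicates 1 to 5, 1.18, 1.15, 1.54 and 1.13 CPM in PILO replicates 2 to 5, and 3.6, 3.05, 2.71, 2.54 and 1.8 CPM in PILO+KD replicates 1 to 5. The PILO animals were below every animal of both other groups, and the PILO+KD animals overlapped CTRL. PILO+KD was higher than PILO (log2 fold change 1.13, standard error 0.29, edgeR p = 0.00053, adjusted p = 1, exact permutation p = 0.0159) and PILO lower than CTRL (log2 fold change -1.18, adjusted p = 0.508), the 2 contrasts sharing the PILO animals. PILO+KD differed from CTRL by -0.05 on the log2 scale (standard error 0.24). Within flow cell FC101 the change between PILO+KD and PILO was 1.18, still with p below 0.01.

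Chr12:29292699-29293362 had a like order of levels, with 4.47, 6.94, 6.31, 4.81 and 4.36 CPM in CTRL, 2.81, 2.22, 2.16 and 3.66 CPM in PILO and 3.31, 4.42, 4.07, 4.75 and 6.79 CPM in PILO+KD animals in replicate order. PILO replicate 5 overlapped PILO+KD replicate 1, and all other PILO animals were below all PILO+KD animals (log2 fold change 0.80, standard error 0.25, edgeR p = 0.00266, adjusted p = 1, exact permutation p = 0.0238). The p rose to 0.0164 without PILO replicate 3, 0.0112 without PILO replicate 4 and 0.0177 without PILO+KD replicate 5. The third higher region, chr12:4247012-4247638, was at 1.8 ± 0.344 CPM in PILO (SD, n = 4) and 3.07 ± 0.619 CPM in PILO+KD (SD, n = 5), and it kept p below 0.01 in 12 of 23 alternatives.

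Among the lower regions, chr12:43090062-43090876 held 2.66, 4.52, 3.7 and 4.79 CPM in PILO and 1.73, 2.32, 2.82, 1.77 and 2.12 CPM in PILO+KD animals in replicate order, against 3.22 ± 0.381 CPM in CTRL (SD, n = 5). PILO replicate 2 overlapped PILO+KD replicate 3 (log2 fold change -0.87, standard error 0.24, edgeR p = 0.00111, adjusted p = 1, exact permutation p = 0.0238), and within flow cell FC101 the change was -0.53 and did not pass p below 0.01. Chr12:37988706-37989700 held 3.55, 4.93, 5.24 and 4.66 CPM in PILO and 1.73, 2.42, 3.39, 2.54 and 2.76 CPM in PILO+KD animals, without overlap (log2 fold change -0.83, standard error 0.23, edgeR p = 0.00123, adjusted p = 1, exact permutation p = 0.0159), and within flow cell FC101 the change was -0.66 and likewise did not pass. Chr12:5690973-5691648 was at 1.39 ± 0.899 CPM in PILO (SD, n = 4), and PILO+KD was lower by a log2 fold change of -1.80 (standard error 0.53, exact permutation p = 0.0238). Its p was 0.0417 without PILO replicate 3, which held 2.55 CPM, the highest PILO value.

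**Figure D5:**
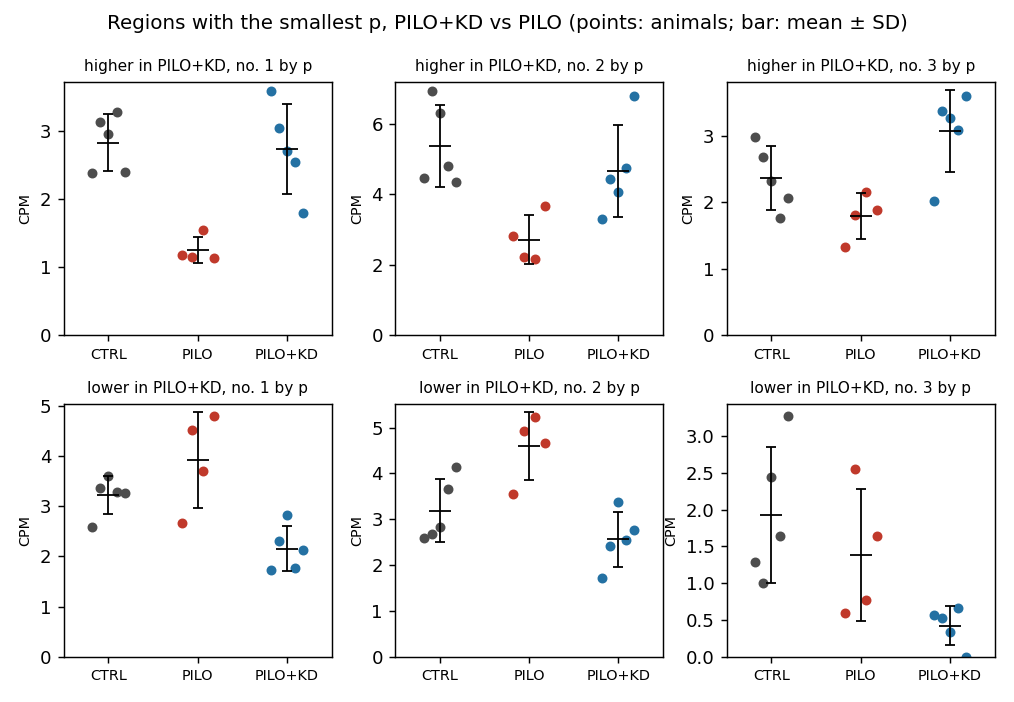
CPM (y axis, from 0) of each animal in CTRL, PILO and PILO+KD for the regions of smallest p in PILO+KD vs PILO, 3 higher and 3 lower, numbered by p, with the mean and SD as bars. In higher region 1 the PILO animals lie between 1.13 and 1.54 CPM and the PILO+KD animals between 1.80 and 3.60 CPM.

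Set beside the other autosomes, chromosome 12 had the largest share of regions with p below 0.01 in PILO+KD against CTRL (rank 1 of 20), rank 3 in PILO against CTRL and rank 17 in PILO+KD against PILO. In PILO+KD against CTRL chromosome 12 was at 1.45% and chromosome 9 at 1.33%. In PILO against CTRL chromosomes 20, 19 and 12 were at 1.78%, 1.62% and 1.61%. The share that was higher among the regions with p below 0.01 in PILO against CTRL, 71.4%, was the largest of the 20, against 59.7% over all tested regions. Chromosome 19 was nearly level with it at 71.2%, and chromosomes 5 and 10 were at 69.1% and 68%, so the rank does not set chromosome 12 apart. In PILO+KD against CTRL it was 45.1% (rank 16), against 54.3% over all tested regions. The ranks are a description, and whether chromosome 12 differs from the other autosomes was not tested. The share of 71.4% on chromosome 12 was 35.6% without PILO replicate 3, against 37.2% over all tested regions. Chromosome 12 also had a wider spread between animals, at rank 3 of 20.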

How the data were processed

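Methylated DNA from 500 ng of dorsal hippocampal DNA of each of 14 rats was captured with a methyl-CpG-binding domain protein and sequenced for 36 cycles. According to the study's methods and the labels, the authors aligned the tags to RN4 with BWA, called peaks between pairs of samples with MACS (version 1.4.0), and deposited the whole-number count of tags per region for each animal, not normalized. The version of BWA and the counting tool's settings were not used here, and RNA and bisulfite data were not analysed here. Region length is end minus start as deposited, and whether starts count from 0 or 1 is not given in the sources used here.

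Groups came from the labels, and flow cells were read from the FC prefix of each label. The PILO+KD animal whose label carries no replicate number was called replicate 5. Regions and lists were chosen with earlier results of these data known. Regions below 129 tags over all animals were dropped, libraries were scaled by TMM, and edgeR (version 4.0.16, R 4.3.3) quasi-likelihood tests were fitted to all 155092 regions and 14 animals together, since the study's methods name edgeR, TMM and a threshold of p below 0.01 but not the test. P-values were adjusted by Benjamini and Hochberg over all tested regions. Levels are CPM with TMM-scaled library sizes. Single regions were also compared by an exact permutation test of log2 CPM (prior count 2), two-sided, over 126 splits for 4 against 5 animals or 252 for 5 against 5, with a smallest possible p of 0.00794. For a region chosen by its p in these same animals, the exact p is no independent support. Windows of 1 Mb with at least 10 regions, 5-Mb bins, and runs of called regions at most 100 kb apart were formed by position. Named were the 6 higher and 6 lower regions with the smallest p in PILO against CTRL, 4 and 4 in PILO+KD against CTRL, 3 and 3 in PILO+KD against PILO, the 3 with most tags, the longest, those next to the excluded interval and those nearest the filter's threshold. Regions inside runs were picked after their values were seen. Alternatives were DESeq2 (version 1.42.0), edgeR's exact test, other scalings, filters and thresholds, a flow cell term, the largest flow cell alone, a replicate block and leaving out each animal. The test script was checked on simulated counts. Wilson intervals are at 95% and, like the limit of 3 tags for a count of 0, cover counting error only. Tags carry no molecular identifiers. Within a group, the chi-square of any pair of libraries over its degrees of freedom was 1.63 to 4.87, more than counting noise gives, so none of these pairs was counted as a duplicate. Pairs across groups were not compared.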

Additional observations from a re-analysis of the deposited data

Results flagged for a closer look

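In each group, the highest or lowest animal was compared with the others by its gap to the nearest, divided by the group's range (Dixon's ratio, 95% level). Of 90 groups tested, over 29 named regions and the chromosome's share of tags, 5 stood out, and chance gives about 1 in 20. In chr12:46463846-46464630, PILO replicate 2 held 5.77 CPM and the other PILO animals 2.47 to 3.03 CPM. In chr12:36451001-36452130, CTRL replicate 2 held 4.03 CPM against 2.19 to 2.40 CPM in the other CTRL animals. In chr12:19680827-19681557, PILO replicate 4 held 1.54 CPM against 1.13 to 1.18 CPM. In chr12:8052427-8052973, at the filter's edge, PILO+KD replicate 2 held 2.00 CPM against 0.774 to 0.863 CPM. The chromosome's share of tags was 3.32% in PILO replicate 3 and 3.08% to 3.11% in the other PILO animals, and PILO replicate 3 is also the deepest library and the one that sets the balance of direction in PILO against CTRL.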

How the results depend on the processing

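The counts of regions with p below 0.01 were 91 in PILO against CTRL, 82 in PILO+KD against CTRL and 16 in PILO+KD against PILO. With at least 10 tags in every animal they were 47, 35 and 8, at p below 0.05 they were 368, 304 and 147, and at an adjusted p below 0.05 they were 0, 0 and 0. Without a filter PILO+KD against PILO had 26, and in the largest flow cell alone 33. Over all tested regions that contrast went from 545 to 1663 without a filter and to 862 in the largest flow cell. With at least 10 tags in every animal the counts over all tested regions were 971, 641 and 240, against 1853, 1427 and 545. The fewer regions tested and the looser or stricter threshold are part of these settings, and the cause of the other shifts was not tested. Leaving out 1 animal gave 74 to 104, 47 to 85 and 14 to 35, and over all tested regions 1445 to 2225, 983 to 1688 and 488 to 921. DESeq2's size factors, DESeq2's test, edgeR's exact test, a flow cell term, total-tag scaling and fits to only the groups compared kept each of these 3 counts within 1.5 times.

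With a replicate block the counts were 99, 48 and 14 (1987, 950 and 471 over all tested regions). Same-numbered animals did not deviate together (r -0.23 to 0.14 over 4 pairs, -0.29 to 0.19 over 4 pairs, and -0.09 to 0.28 over 3 pairs), so the numbers were not taken as pairs. The chromosome's share of tags was 2.98%, 2.92% and 2.92% of all deposited tags in CTRL, PILO and PILO+KD. Without the pair of regions with the most tags it was 3.08%, 3.03% and 3.03%. That alternative was chosen after seeing the data, as were the counts by stretch of the chromosome under each setting. The tags of all the chromosome's deposited regions outside the interval, divided by the tested tags, gave 3.44%, 3.42% and 3.39%. These are not shares, because tags of regions below the filter were counted only on the chromosome's side. No window passed p below 0.01 under any alternative run. The named regions kept direction and side of the threshold in 746 alternatives and lost p below 0.01 in 27, most of these in PILO+KD against PILO or within the largest flow cell. The 746 include regions named for their tags, their place or the filter's edge, which never passed p below 0.01. The others were chosen by their p in these same data, so the tally is no independent support. A region near the filter's threshold of 129 tags holds few tags per animal, and its counting error limits the change that could be detected.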
